A study of Mus musculus with 21 samples.

Results

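Cd36, Fabp4, Fabp5, Pparg, Ppard, Ppara, Lpl, Angptl4, Plin2 and Plin4, genes of lipid uptake and of the PPAR nuclear receptors, were described in mouse pancreatic islets by RNA-seq. The 10 genes were matched by symbol among the 55536 gene identifiers of the count files, and all 10 were found. They were selected with their levels in these samples known, so their own levels, fold changes and calls are given as a description, without p-values, and support nothing further. Each sample was RNA of 150 islets from CBA mice, drawn after the islets of 5 mice had been pooled, and 7 such samples were made for each of 3 groups. RD mice had regular diet, HFD mice had high-fat diet, and HFD-O304 mice had high-fat diet that contained O304, a small molecule that activates every form of the energy-sensing kinase AMPK, at 0.8 mg per g of diet. The diets began at 10 weeks of age. Their length is given as 9 weeks in the study's methods and as 10 weeks in its results text. The comparisons ask which islet transcripts differed with high-fat diet, and which of them differed when O304 was added to it.

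Long-chain fatty acids reach cells as albumin-bound fatty acid or in lipoproteins, whose triglyceride is cleaved in the capillary by lipoprotein lipase (Lpl). CD36 helps fatty acids across the plasma membrane, fatty acid binding proteins carry them in the cytosol, and perilipins coat the droplets in which surplus lipid is stored. PPARs are nuclear receptors that sense fatty acids and, as dimers with RXR, switch on many genes of this route. In islets these genes are studied because long exposure of β-cells to fatty acids disturbs insulin secretion, and because islets also hold capillaries and macrophages, cell types known for Cd36 and Fabp4.

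RefSeq promoter sequences (build GRCm38.p6, 250 bases before to 50 after a start site) were at hand for Cd36, Plin2, Plin4, Ppara, Ppard and Pparg, which has 3 of them, 8 promoters in all. They were searched on both strands for the spaced repeat AGGTCANAGGTCA, called DR1, the pattern that PPAR and RXR dimers are known to bind, by counting mismatches over its 12 fixed letters. The single core AGGTCA, which overlaps DR1, was searched as well. The 250 upstream bases of Cd36 and Plin2 are shown because these promoters held the closest matches, with the best match to DR1 in capitals. Both lie on the minus strand of the chromosome and are written 5′ to 3′ along the gene.
Cd36, chr5:17835897-17836146: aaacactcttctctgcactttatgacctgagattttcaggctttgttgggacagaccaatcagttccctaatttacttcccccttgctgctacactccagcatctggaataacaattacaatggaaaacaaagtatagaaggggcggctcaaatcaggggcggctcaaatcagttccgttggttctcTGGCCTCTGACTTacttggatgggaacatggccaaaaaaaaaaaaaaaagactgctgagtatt
Plin2, chr4:86670060-86670309: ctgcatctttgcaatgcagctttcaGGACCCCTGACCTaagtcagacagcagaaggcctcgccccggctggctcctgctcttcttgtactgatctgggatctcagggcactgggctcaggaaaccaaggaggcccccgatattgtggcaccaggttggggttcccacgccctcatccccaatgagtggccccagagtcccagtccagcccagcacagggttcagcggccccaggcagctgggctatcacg
The Cd36 start site used by RefSeq lies inside the gene's annotated span on chromosome 5 (17781690 to 17888801), and the match began at position -63 relative to it. Read on the opposite strand, with letters that match DR1 in capitals, the Cd36 word was AaGTCAgAGGcCA and the Plin2 word was AGGTCAggGGTCc, each with 2 mismatches. At most 2 mismatches were found in 3.86% of the 32851 mouse promoters in the same table. The Pparg, Ppara and Plin4 promoters came no nearer than 4 mismatches, a match that 79.8% of all promoters held, and the Ppard promoter had 5. The single core was present for Cd36, Plin2 and the first 2 Pparg promoters, and in 16.3% of all promoters. Such a match describes letters in a window and is no measure of binding.

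Read pairs counted on genes ranged from 13809266 (HFD-O304 replicate 2) to 48922569 per sample, and the next lowest total was 27618749. Levels are given as normalised counts, the counts of a sample divided by its DESeq2 size factor. Genes with at least 10 read pairs over the 21 samples entered the tests, which left 27229 genes and 9 of the 10 described here. Plin4 did not enter. A gene was called different between groups at a Benjamini-Hochberg adjusted p under 0.01 in edgeR's quasi-likelihood test, fitted to all 3 groups at once. Over all genes with a mean of at least 50 normalised counts, the median log2 fold change lay within 0.01 of 0 in each comparison (0.0061 in HFD vs RD, 0.00837 in HFD-O304 vs RD, 0.00975 for HFD-O304 vs HFD). Transcripts of insulin, which defines islet β-cells, were abundant in each group, with means of 7252000, 7735000 and 6589000 normalised counts of Ins2 in RD, HFD and HFD-O304 islets.

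In HFD vs RD islets, Cd36, Fabp4 and Angptl4 were called higher and Lpl lower, 4 of 9 tested genes, while 3.54% of all 27229 genes were called, 2.00% higher and 1.54% lower. In HFD-O304 vs RD islets, Cd36, Fabp4 and Angptl4 were called higher, 3 of 9, with 1.31% of all genes called, 0.404% higher and 0.903% lower. In HFD-O304 vs HFD islets, Cd36, Fabp4 and Lpl were called higher and Fabp5 lower, 4 of 9, with 11.9% of all genes called, 5.08% higher and 6.79% lower. Since the genes were selected on these same values, nothing is read from the counts. The 7 samples of one group lay wholly above or below those of the other for 3 of these genes in HFD vs RD islets (1.35% of all genes), for 2 in HFD-O304 vs RD (1.56%) and for 4 in HFD-O304 vs HFD (6.17%). The HFD-O304 vs RD comparison shares its samples with the other two, so the 3 sets of values are not independent.

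**Figure D1:**
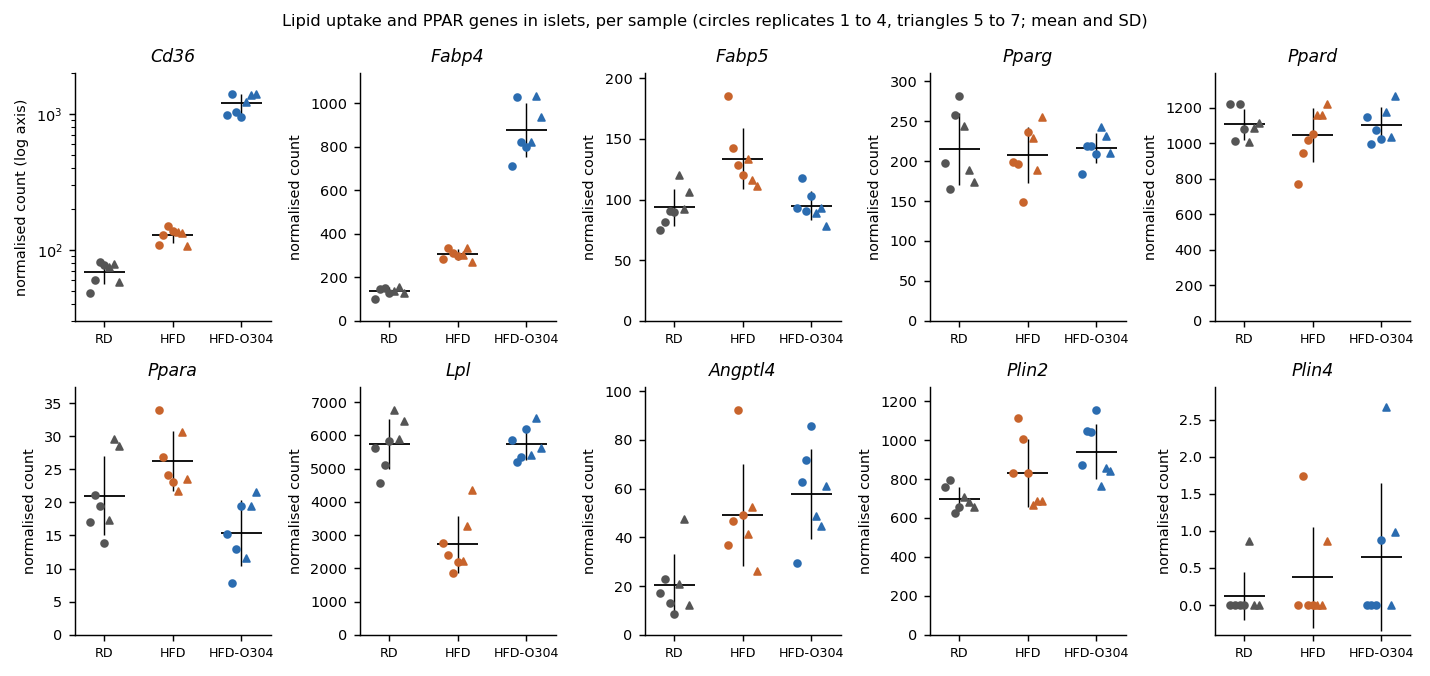
Normalised counts of the 10 genes (vertical axes, Cd36 on a log axis) in the 21 islet samples by group (horizontal axes), with the mean as a line and the SD as a bar. Circles are replicates 1 to 4 and triangles replicates 5 to 7. Cd36 and Fabp4 form 3 separate bands, with 944 to 1413 normalised counts of Cd36 in HFD-O304 islets against 48.0 to 81.2 in RD islets, while Pparg and Ppard overlap in all 3 groups.

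Cd36, the fatty acid translocase (ENSMUSG00000002944, chromosome 5, minus strand, GRCm38), had the widest range of the 9 tested genes as a ratio of the highest to the lowest sample. Its normalised counts were 48.0 to 81.2 in RD islets (median 74.4), 106.04 to 149 in HFD islets (median 132) and 944 to 1413 in HFD-O304 islets (median 1229). The 3 groups did not overlap, and the lowest HFD-O304 sample was far above the highest of the other 14. The means were 68.2 ± 12.6, 128 ± 15.8 and 1199 ± 206 (SD, n = 7 each). On the log2 scale Cd36 was higher by 0.90 ± 0.13 (SE) in HFD vs RD islets, by 4.13 ± 0.12 in HFD-O304 vs RD and by 3.23 ± 0.12 in HFD-O304 vs HFD, that is 1.87-fold, 17.5-fold and 9.35-fold. Among the 13216 genes with a mean of at least 50 normalised counts, Cd36 stood at rank 1 from the top by log2 fold change in both comparisons of HFD-O304 islets, and at rank 124 in HFD vs RD islets. The counts rest on 10512 read pairs in all, of which 481 came from the 7 RD samples, and 1 further pair lay on the opposite strand. Within replicates 1 to 4 the difference between HFD-O304 and HFD islets was 3.04 ± 0.16 on the log2 scale, and within replicates 5 to 7, which belong to another set of library numbers, it was 3.42 ± 0.11. In islets, as in any bulk sample, fewer cells of a type and less RNA per cell cannot be told apart.

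Cd36 has few close neighbours. Within 250 kb of it the annotation places 2 other protein-coding genes, Sema3c and Gnat3, named here after their values were seen. Sema3c, a secreted guidance factor, had 594 ± 226 normalised counts in HFD islets and 217 ± 42.6 in HFD-O304 islets and fell (log2 fold change -1.43, adjusted p = 1.2e-05). Gnat3, a taste-receptor G protein subunit, had 2.87 ± 2.37 in HFD islets and 7.60 ± 2.18 in HFD-O304 islets (adjusted p = 0.0338).

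Fabp4, the fatty acid carrier best known from adipocytes, capillary endothelium and macrophages (ENSMUSG00000062515, chromosome 3, 10204088 to 10208576, minus strand), was ordered as Cd36 was. Its normalised counts ran from 101.4 to 157 in RD islets (median 138), from 269 to 336 in HFD islets (median 305) and from 713 to 1036 in HFD-O304 islets (median 821). Here too the groups did not overlap. Mean levels were 136 ± 18.8, 306 ± 24.3 and 880 ± 124 (SD, n = 7 each), and the log2 fold changes were 1.16 ± 0.10 (HFD vs RD), 2.69 ± 0.10 (HFD-O304 vs RD) and 1.52 ± 0.09 (HFD-O304 vs HFD). These are 2.24-fold, 6.44-fold and 2.88-fold. The share of the HFD-O304 vs RD difference that was already present in HFD islets was thus larger for Fabp4 than for Cd36 on the log2 scale, a difference between the genes that was not tested. In replicates 1 to 4 alone Fabp4 was higher in HFD-O304 vs HFD islets by 1.43 ± 0.13, and in replicates 5 to 7 alone by 1.62 ± 0.11, on the log2 scale.

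Fabp5, the epidermal-type carrier of the same family, lies 187 kb from it (chromosome 3, 10012548 to 10016607, plus strand) and did not follow it. Fabp5 had 74.7 to 120 normalised counts in RD islets (median 90.4), 111.3 to 186 in HFD islets (median 129) and 78.6 to 117.6 in HFD-O304 islets (median 93.1). The HFD samples lay highest and overlapped both other groups, and HFD replicate 1 stood apart at 186. The log2 fold change was 0.50 ± 0.12 in HFD vs RD islets, 0.01 ± 0.13 in HFD-O304 vs RD and -0.49 ± 0.12 for HFD-O304 vs HFD. The latter call was lost without HFD replicate 1, HFD replicate 2, HFD-O304 replicate 5 or HFD-O304 replicate 7, with log2 fold changes of -0.53 to -0.40 over the 21 fits that left out 1 library each. The sets of library numbers disagreed on HFD vs RD, with 0.77 ± 0.17 in replicates 1 to 4 and 0.17 ± 0.16 in replicates 5 to 7. On HFD-O304 vs RD they gave opposite signs, 0.238 ± 0.171 in replicates 1 to 4 and -0.293 ± 0.165 in replicates 5 to 7. Of the 50-base words in the Fabp5 exons, 5.48% are also found in 5 other genes, among them Fabp5l2 and 4 named Gm, and pairs that match several places are not in the counts.

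Per kilobase of exon, the balance of both carriers moved with the groups. Here and below, the length is the union of all annotated exons of a gene. It is 4489 bases for Fabp4, which is its whole gene span, and 3567 bases for Fabp5. The size of each share depends on these lengths. Fabp4 made up 47.6 to 58.7% of the summed Fabp4 and Fabp5 level in RD islets (mean 53.6 ± 4.39, SD), 55.1 to 69.6% in HFD islets (64.6 ± 4.51) and 85.9 to 90.5% in HFD-O304 islets (87.9 ± 1.74). The other genes of this chromosome 3 cluster were at or near 0. Pmp2 had no read pair in any sample, Fabp9 had a mean of 0.103 normalised counts in HFD-O304 islets and 0 in both other groups, and Fabp12 had 0.689, 0.278 and 1.001. Of the 8 tested protein-coding genes within 250 kb of Fabp4, Fabp5 and Chmp4c, a membrane-scission gene named after its value was seen, were called in any comparison (Chmp4c with 0.39 on the log2 scale against RD in HFD-O304 islets, adjusted p = 0.00422, and 0.40 against HFD, adjusted p = 0.000446).

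**Figure D2:**
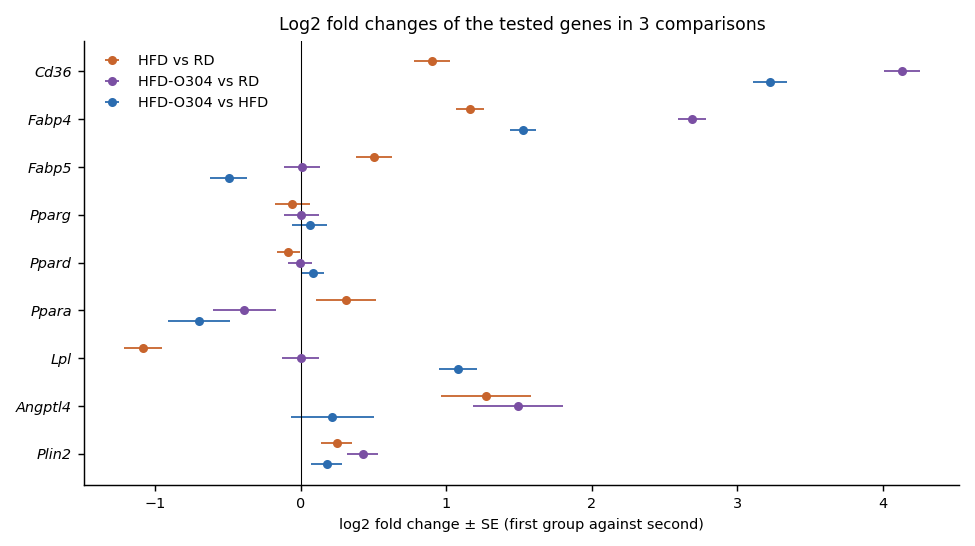
Log2 fold changes (horizontal axis) with SE as bars for the 9 tested genes (vertical axis) in the 3 comparisons, by colour. Cd36 lies furthest from 0, at 4.13 in HFD-O304 vs RD, Lpl lies at -1.08 in HFD vs RD and at 1.08 in HFD-O304 vs HFD, and Pparg and Ppard lie near 0 in all 3.

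None of the 3 PPAR receptors was called by edgeR in any comparison, and DESeq2 called Ppara lower in HFD-O304 vs HFD islets. Pparg, the receptor that drives adipocyte differentiation (chromosome 6, 115360951 to 115490399), had 166 to 282 normalised counts in RD islets (median 198), 149 to 255 in HFD islets (median 198) and 183 to 243 in HFD-O304 islets (median 219). All 3 groups overlapped, and the log2 fold changes were -0.06 ± 0.12, 0.01 ± 0.12 and 0.06 ± 0.12 in HFD vs RD, HFD-O304 vs RD and HFD-O304 vs HFD. An antisense gene, Gm44079, overlaps Pparg, and 0.214% of the pairs at Pparg lay on that strand. Ppard, the most widely expressed PPAR (chromosome 17, 28232700 to 28301474), had 1008 to 1221 normalised counts in RD islets (median 1087), 771 to 1222 in HFD islets (median 1051) and 995 to 1267 in HFD-O304 islets (median 1076). Its log2 fold changes were -0.08 ± 0.08, 0.00 ± 0.08 and 0.08 ± 0.08, but in HFD vs RD the library sets gave opposite signs, -0.26 ± 0.10 in replicates 1 to 4 and 0.14 ± 0.08 in replicates 5 to 7.

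Ppara, the receptor known for fatty acid oxidation in liver and heart (chromosome 15, 85734983 to 85802819), was low. It had 13.9 to 29.6 normalised counts in RD islets (median 19.4), 21.7 to 34.0 in HFD islets (median 24.1) and 7.84 to 21.6 in HFD-O304 islets (median 15.2). The HFD and HFD-O304 samples lay side by side without overlap, and the gene was called by DESeq2 but not by edgeR. Its log2 fold changes were 0.31 ± 0.21, -0.39 ± 0.22 and -0.70 ± 0.21, and 452 read pairs over the 21 samples stood behind them. Per kilobase of exon and in RD islets, Ppard was at 147 ± 11.6, Pparg at 73.0 ± 15.3 and Ppara at 5.47 ± 1.56 normalised counts (SD, n = 7), and this order was the same in both other groups. The ranges of the 3 receptors per kilobase did not overlap in any group.

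Lpl, lipoprotein lipase (ENSMUSG00000015568, chromosome 8, 68880491 to 68907448, plus strand), had the highest level per kilobase of the 10 genes in each group and went the other way with high-fat diet. It had 4571 to 6770 normalised counts in RD islets (median 5827), 1858 to 4353 in HFD islets (median 2414) and 5209 to 6522 in HFD-O304 islets (median 5615). No HFD sample reached the lowest RD sample or the lowest HFD-O304 sample, and the RD and HFD-O304 groups overlapped. The means were 5743 ± 746, 2722 ± 850 and 5737 ± 478 (SD, n = 7 each), and the log2 fold changes were -1.08 ± 0.13 (HFD vs RD), 0.00 ± 0.13 (HFD-O304 vs RD) and 1.08 ± 0.13 (HFD-O304 vs HFD). HFD islets thus held 0.472 times the RD level.

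Transcripts of α-cells moved with Lpl. All 4 listed α-cell markers fell in HFD vs RD islets (median log2 fold change -0.93) and rose in HFD-O304 vs HFD islets (median 1.18), with Gcg, the glucagon gene, at -1.01 and 1.21. Their summed normalised counts were 785600 to 1005000 in RD islets, 290800 to 610300 in HFD islets and 820900 to 1107000 in HFD-O304 islets, and HFD replicate 7 was the highest HFD sample both for this sum and for Lpl. Per 1000 summed α-cell marker counts, Lpl was at 6.72 ± 0.64 in RD islets, 6.42 ± 0.92 in HFD islets and 5.90 ± 0.76 in HFD-O304 islets (SD, n = 7). With the α-cell marker score as a covariate, a fit added after the data were seen, the log2 fold change of Lpl was -0.37 ± 0.18 in HFD vs RD islets and 0.12 ± 0.23 in HFD-O304 vs HFD, and neither was called. In that fit 0 genes of the whole table were called by edgeR in HFD vs RD islets (867 at an unadjusted p under 0.05) and 2 in HFD-O304 vs HFD, which were Cd36 (3.79 ± 0.30) and Fabp4 (1.75 ± 0.24). The summed markers of HFD islets lay wholly below both other groups, so this fit can hardly separate the score from the group where HFD is compared. Its SEs were larger, 0.301 in place of 0.115 for Cd36 in HFD-O304 vs HFD. Which part of the Lpl difference goes with the number of α-cells was not tested.

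Angptl4, a secreted inhibitor of Lpl (chromosome 17, 33773750 to 33781830, minus strand), was low and variable. It had 8.54 to 47.6 normalised counts in RD islets (median 17.1), 26.1 to 92.4 in HFD islets (median 46.8) and 29.6 to 85.6 in HFD-O304 islets (median 60.9). RD replicate 6, at 47.6, overlapped both other groups, while the next RD sample was at 23.0, below them, and the HFD and HFD-O304 groups overlapped widely. The log2 fold changes were 1.27 ± 0.31 (HFD vs RD), 1.49 ± 0.31 (HFD-O304 vs RD) and 0.22 ± 0.28 (HFD-O304 vs HFD). Both calls lay close to the threshold. In HFD vs RD the call held in 4 of 21 fits that left out 1 library (without RD replicate 6, HFD replicate 7, HFD-O304 replicate 1 or HFD-O304 replicate 4), with log2 fold changes of 1.04 to 1.63, and in HFD-O304 vs RD it held in 13 of 21, with 1.36 to 1.85, and was lost without any of RD replicates 1, 3, 4, 5 and 7 or HFD-O304 replicates 3, 4 and 7. In replicates 5 to 7 alone the HFD vs RD value was 0.56 ± 0.37.

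Plin2, the coat protein of droplets in most cells (chromosome 4, 86648386 to 86670060, minus strand), had 627 to 794 normalised counts in RD islets (median 681), 665 to 1115 in HFD islets (median 832) and 764 to 1156 in HFD-O304 islets (median 874). All 3 groups overlapped and no comparison was called, with log2 fold changes of 0.25 ± 0.11, 0.43 ± 0.11 and 0.18 ± 0.11. In HFD vs RD islets replicates 1 to 4 gave 0.41 ± 0.11 and replicates 5 to 7 gave -0.01 ± 0.08. Plin2 was called in HFD-O304 vs RD islets by DESeq2. Plin4, a coat protein known from adipocytes and muscle (chromosome 17, 56100591 to 56109803, minus strand), had 9 read pairs in 6 of the 21 samples, at most 2.67 normalised counts, against 155 pairs on the opposite strand, where Hdgfl2 overlaps it. Only the count on the gene's own strand can be given to Plin4.

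Other genes of the same route were read as 5 lists of 92 genes in all, of which 84 were tested. In HFD vs RD islets 12 were called (8 higher, 4 lower), in HFD-O304 vs RD 7 (5 higher, 2 lower) and in HFD-O304 vs HFD 19 (10 higher, 9 lower). These are 14.3%, 8.33% and 22.6% of the genes tested, beside the 3.54%, 1.31% and 11.9% of all genes, and the median log2 fold changes were -0.01, 0.05 and 0.04. The lists were drawn up with earlier results of these data known, so these shares are a description.

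**Figure D3:**
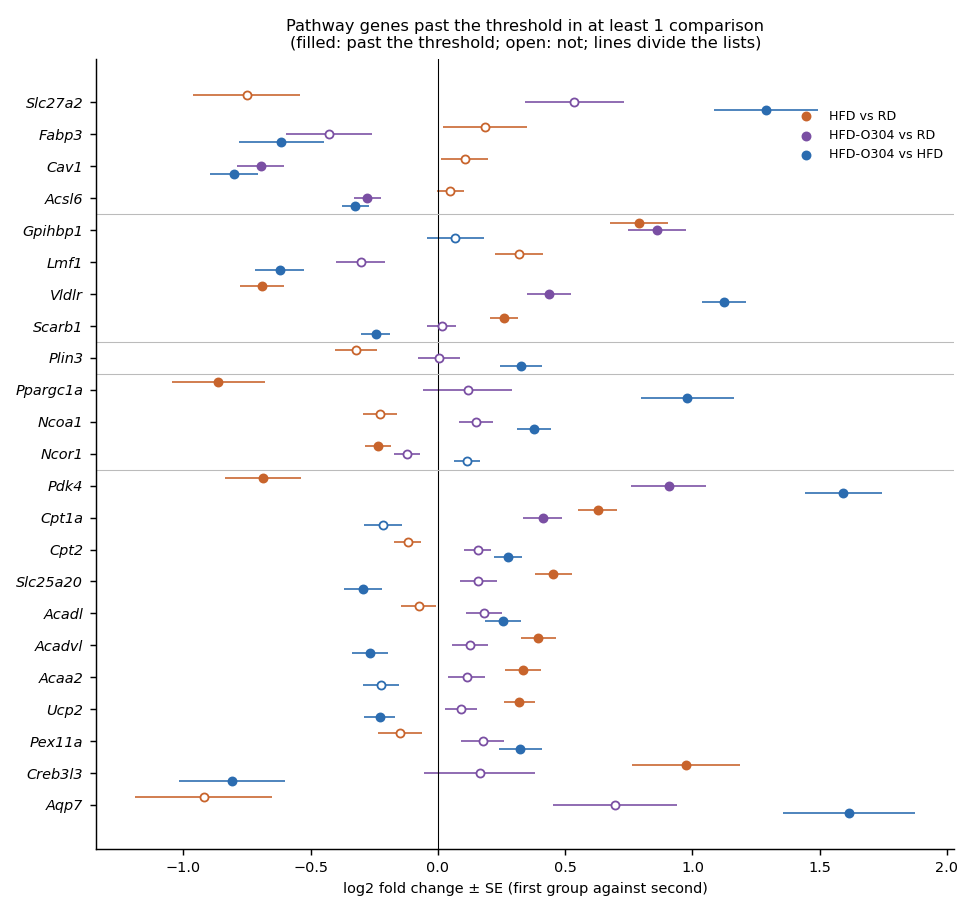
Log2 fold changes (horizontal axis) with SE as bars of listed genes that passed the threshold in at least 1 comparison (vertical axis, 1 such gene not shown), by comparison in colour. Filled points passed and open points did not, and grey lines divide the 5 lists in the order of the text. Vldlr, Ppargc1a and Pdk4 lie below 0 in HFD vs RD and above 0 in HFD-O304 vs HFD, from -0.69 to 1.59 for Pdk4.

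Of the other fatty acid transporters and carriers, 16 of 19 were tested, and 0 were called in HFD vs RD islets by edgeR, where 4 had an unadjusted p under 0.05 and DESeq2 called 2. In HFD-O304 islets Cav1, the caveolin of plasma membrane pits, fell against both other groups. It had 918 ± 97.7 normalised counts in RD islets, 991 ± 89.2 in HFD islets and 564 ± 99.8 in HFD-O304 islets (SD, n = 7), with log2 fold changes of -0.70 vs RD (adjusted p = 3.1e-05) and -0.80 vs HFD (adjusted p = 5.71e-07) and no overlap. Acsl6, an acyl-CoA synthetase, fell likewise by less, from 1222 ± 61.9 and 1268 ± 58.4 to 1006 ± 70.4 normalised counts (log2 fold changes -0.28, adjusted p = 0.00241, and -0.33, adjusted p = 4.79e-05). Fabp3, the heart-type carrier, fell in HFD-O304 vs HFD islets (-0.61, adjusted p = 0.00953), a call that held in 5 of 21 fits without 1 library. Slc27a2, a transporter with acyl-CoA synthetase activity, was the 1 gene of the list that rose in HFD-O304 vs HFD islets (21.2 ± 5.00 to 53.1 ± 17.1 normalised counts, log2 fold change 1.29, adjusted p = 3.67e-05). Its mean lies under 50 normalised counts and it is named after its value was seen.

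Among the partners of Lpl and the lipoprotein receptors, Gpihbp1 and Vldlr had the largest log2 fold changes of the called genes. Gpihbp1, which anchors Lpl to the capillary wall, rose from 148 ± 24.4 normalised counts in RD islets to 257 ± 43.5 in HFD islets and 269 ± 32.6 in HFD-O304 islets, with log2 fold changes of 0.79 (adjusted p = 8.76e-05) and 0.86 (adjusted p = 2.72e-05) and no overlap with RD. HFD-O304 vs HFD gave 0.07 ± 0.11 (adjusted p = 0.755). Vldlr, the very low density lipoprotein receptor, fell from 1070 ± 85.9 to 664 ± 100 with high-fat diet (-0.69, adjusted p = 1.88e-05) and was at 1447 ± 175 in HFD-O304 islets, a rise of 1.12 vs HFD (adjusted p = 8.96e-10) and of 0.43 vs RD (adjusted p = 0.00323). The Vldlr call vs RD was lost without HFD-O304 replicate 6, and over all fits without 1 library the log2 fold change was 0.40 to 0.49. Lmf1, needed for folding of Lpl, fell in HFD-O304 vs HFD islets (-0.62, adjusted p = 2.48e-05), and Scarb1, the HDL receptor, rose with HFD (0.26, adjusted p = 0.00405) and fell in HFD-O304 vs HFD islets (-0.24, adjusted p = 0.0023).

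Droplet genes gave few calls. Of the PPAR partners 2 of 11 (18.2%) were called in HFD vs RD and 2 of 11 in HFD-O304 vs HFD islets. Of all genes 3.54% and 11.9% were called there. In HFD-O304 vs RD edgeR called 0 partners (3 at an unadjusted p under 0.05). All 17 droplet genes were tested, 0 were called in both comparisons with RD by edgeR (unadjusted p under 0.05 in 7 and 1, called by DESeq2 in 3 and 1, for HFD and HFD-O304 islets), and Plin3, a coat protein of nascent droplets, rose in HFD-O304 vs HFD islets (243 ± 36.6 to 303.5 ± 20.7 normalised counts, log2 fold change 0.33, adjusted p = 0.00599). Of 11 partners and coregulators, Ppargc1a, the coactivator of mitochondrial genes, fell in HFD vs RD islets (179 ± 15.7 to 98.0 ± 44.4, -0.86, adjusted p = 0.00331) and rose in HFD-O304 vs HFD (to 194 ± 24.5, 0.98, adjusted p = 0.000243). Without HFD replicate 4 the first of these calls was lost, and its log2 fold changes without 1 library ran from -1.09 to -0.74. Ncor1, a corepressor, fell in HFD vs RD islets (-0.24, adjusted p = 0.00468), and Ncoa1, a coactivator, rose in HFD-O304 vs HFD islets (0.38, adjusted p = 0.00015).

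Known PPAR targets of other tissues did not go one way. Of 30 tested, 6 rose and 1 fell in HFD vs RD islets, 3 rose in HFD-O304 vs RD, and 5 rose and 4 fell in HFD-O304 vs HFD. Genes of fatty acid oxidation made up most of the first 6. Cpt1a, the gate of mitochondrial fatty acid import, rose from 1825 ± 256 to 2829 ± 143 normalised counts with HFD (0.63, adjusted p = 1.26e-05) and was at 2424 ± 212 in HFD-O304 islets (0.41 vs RD, adjusted p = 0.0016). Slc25a20, the carnitine carrier, rose by 0.45 (adjusted p = 0.000291), Acadvl by 0.40 (adjusted p = 0.000743) and Acaa2 by 0.34 (adjusted p = 0.00344) in HFD vs RD islets. Of these, Slc25a20 and Acadvl fell in HFD-O304 vs HFD islets (-0.29, adjusted p = 0.0046, and -0.27, adjusted p = 0.00708). Ucp2 and Creb3l3 completed the 6 that rose, and both were called lower in HFD-O304 vs HFD islets. That call of Ucp2 held in only 3 of 21 fits without 1 library.

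Pdk4, the kinase that spares glucose by blocking pyruvate oxidation, went against these genes in HFD vs RD islets. In HFD-O304 vs HFD it went against Slc25a20 and Acadvl, while in HFD-O304 vs RD it was called higher, as Cpt1a was. It had 680 ± 162 normalised counts in RD islets, 425 ± 110.9 in HFD islets and 1274 ± 162 in HFD-O304 islets, with log2 fold changes of -0.69 (adjusted p = 0.00448), 0.91 (vs RD, adjusted p = 0.000401) and 1.59 (vs HFD, adjusted p = 2.16e-08). The others that rose in HFD-O304 vs HFD islets were Cpt2, Acadl, Pex11a and Aqp7, of log2 fold change 0.26 to 1.61. Ucp2, Creb3l3, Cpt2, Acadl, Pex11a and Aqp7 are named to complete the counts. With the α-cell marker score as a covariate none of the 92 genes was called by edgeR in HFD vs RD or HFD-O304 vs HFD islets (8 and 9 at an unadjusted p under 0.05), and Pdk4 was at 0.19 ± 0.25 and Ppargc1a at 0.01 ± 0.27 in HFD vs RD. In HFD-O304 vs HFD islets Ppargc1a, Lmf1, Scarb1, Acadvl and Pex11a changed sign in that fit, but none lay farther from 0 than its SE. Over the 21 fits without 1 library, 7 of the 12 calls in HFD vs RD, 6 of 7 in HFD-O304 vs RD and 11 of 19 in HFD-O304 vs HFD were made each time. In HFD vs RD, Creb3l3 was called in 14 of them, Pdk4 in 15, Ncor1 in 16 and Scarb1 in 17. For HFD-O304 vs HFD, Ucp2 was called in 3 of them, Fabp3 in 5, Acadl in 8 and Acadvl in 11. There Plin3 and Pex11a were called in 12, Creb3l3 in 14 and Slc25a20 in 16.

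Cell types known for these genes were followed by marker lists. The 10 endothelial markers summed to 21120 to 25870 normalised counts in RD islets, 19870 to 28970 in HFD islets and 16650 to 24590 in HFD-O304 islets. In HFD-O304 vs HFD islets edgeR called 3 of the 10, all lower (9 at an unadjusted p under 0.05, 6 called by DESeq2). The median log2 fold change of the list was -0.30 there. In HFD-O304 vs RD edgeR called 2, both lower (4 at an unadjusted p under 0.05, 3 called by DESeq2, median -0.22). For HFD vs RD edgeR called 0 (4 at an unadjusted p under 0.05, 1 called by DESeq2). Plvap and Kdr, with most reads in that list, had log2 fold changes of -0.41 and -0.16 in HFD-O304 vs HFD islets and were not called. Per 1000 summed endothelial counts, Cd36 was at 2.86 ± 0.36 in RD islets, 5.17 ± 0.80 in HFD islets and 61.2 ± 13.4 in HFD-O304 islets (SD, n = 7), and Fabp4 at 5.74 ± 0.63, 12.4 ± 2.18 and 44.8 ± 8.92. With the endothelial score as a covariate the log2 fold changes in HFD-O304 vs HFD islets were 3.38 for Cd36 and 1.61 for Fabp4.

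Macrophage markers summed to 2651 to 3213 normalised counts in RD islets, 2407 to 3617 in HFD islets and 2775 to 3439 in HFD-O304 islets, and 1 of 10, Csf1r, was called, in HFD-O304 vs HFD islets (0.45, higher). In both comparisons with RD 0 were called by edgeR, while 6 and 5 had an unadjusted p under 0.05 and DESeq2 called 2 and 1, for HFD and HFD-O304 islets. C1qa, the list's gene with most reads, had -0.17 there. Per 1000 summed macrophage counts Cd36 was at 23.3 ± 4.28, 40.1 ± 4.89 and 410 ± 82.8 in RD, HFD and HFD-O304 islets. Of the 6 adipocyte markers, Adipoq, Lep, Retn and Cfd were at or near 0, with 1, 1, 2 and 8 read pairs over all 21 samples. Their list summed to a median of 5.74, 2.01 and 3.61 normalised counts in RD, HFD and HFD-O304 islets, and the highest sample was HFD replicate 7 at 106.9, nearly all Plin1.

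Mesenchymal and exocrine markers moved as well. Of 7 mesenchymal markers 2 rose in HFD vs RD islets and 5 fell in HFD-O304 vs HFD, with sums of 9536 to 13340, 11410 to 20790 and 6248 to 10920 normalised counts in RD, HFD and HFD-O304 islets. Rgs5, a pericyte gene, had log2 fold changes of 0.49 and -1.15 and Col3a1 of 1.08 (not called) and -1.45. With that list's score as a covariate, added after the data were seen, Lpl was at 0.77 ± 0.15 and Angptl4 at 1.003 ± 0.38 (not called) in HFD-O304 vs HFD islets. Of 5 duct markers 3 rose in HFD-O304 vs HFD islets, Krt19 by 1.15 on the log2 scale, and Spp1 was not called. The duct sum did not rise with them. Its mean was 2349 ± 520 normalised counts in RD islets, 3347 ± 697 in HFD islets and 2845 ± 778 in HFD-O304 islets (SD, n = 7). Of 7 acinar markers, led by Ctrb1 and Pnlip, none was called by edgeR or DESeq2 and 0 had an unadjusted p under 0.05 in any comparison, and their sums spread from 408 to 268500 normalised counts over the samples. Of 8 β-cell markers 2 were called with HFD against RD, Iapp higher (0.41) and Slc30a8 lower (-0.36), and 5 in HFD-O304 vs HFD islets. Of these 5, Slc30a8 (0.53) and Ucn3 (0.52) were higher and Iapp (-0.60), Ins1 (-0.20) and Ins2 (-0.23) lower, of which Iapp, Slc30a8 and Ucn3 are named to complete the counts. Of 3 δ- and PP-cell markers 1 and 2 were called in these comparisons, Sst at -0.66 and 0.88, while Ppy was not called. The part of each cell type in the differences of Cd36, Fabp4, Fabp5, Lpl and Angptl4 was not tested.

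**Figure D4:**
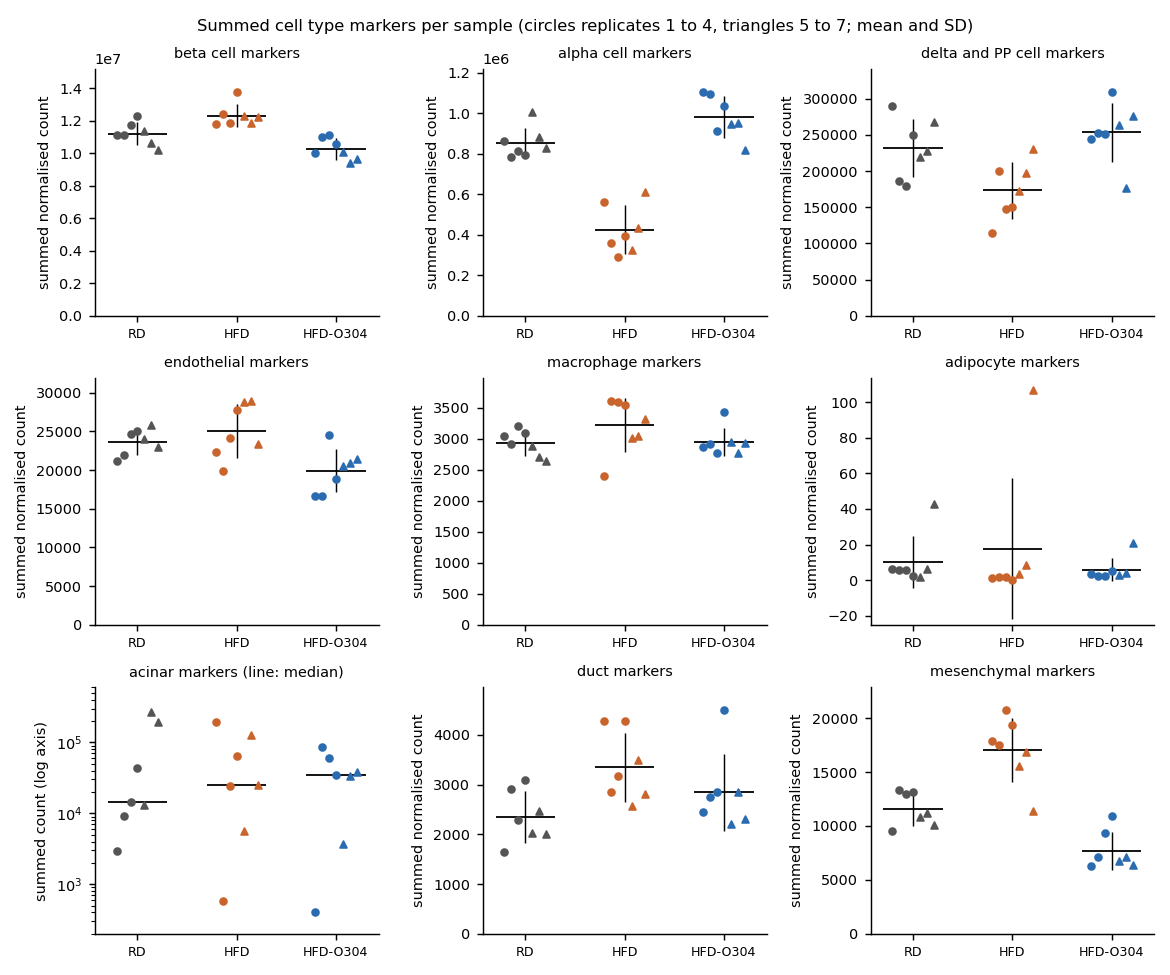
Summed normalised counts of 9 cell type marker lists (vertical axes, the acinar list on a log axis) in the 21 samples by group (horizontal axes), with the mean as a line and the SD as a bar, or the median for the acinar list. The α-cell sums of HFD islets, 290800 to 610300, lie below both other groups, and the mesenchymal sums are lowest in HFD-O304 islets, 6248 to 10920.

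The genes whose levels were most like those of Cd36 over the 21 samples were sought among 13215 others with a mean of at least 50 normalised counts, by Pearson's r of log2(normalised count + 1). Fabp4 came first (r = 0.97), followed by Rbp7, a retinol binding protein (0.96), Pawr, a regulator of apoptosis (0.89), Npr3, the natriuretic peptide clearance receptor (0.87), and Vsnl1, a calcium sensor (0.87). Most like Fabp4 were Cd36, Rbp7 (0.91), Npr3 (0.89), Slc2a13, an inositol transporter (0.87), and Gpc4, a glypican (0.85). The points share their libraries and fall into the 3 groups, so these values describe the group pattern. Rbp7 had 457 ± 64.2, 545 ± 122 and 1384 ± 115.5 normalised counts and Npr3 57.5 ± 18.8, 84.3 ± 29.3 and 170 ± 34.1 in RD, HFD and HFD-O304 islets (SD, n = 7). Of the genes described here, Plin2 ranked 527 for Cd36 and 124 for Fabp4, and Lpl ranked 3488 and 6034.

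Whether the 10 genes also moved together from sample to sample was asked after each group's mean had been subtracted, which takes out the differences that the selection used. Of 45 pairs, 2 had an adjusted p under 0.05 in a two-sided permutation test within groups (100000 resamples, Benjamini-Hochberg over the 45). Cd36 and Fabp4 went together (r = 0.80, p = 0.00014, adjusted p = 0.00382; Spearman's rho = 0.81, permutation p = 8e-05, adjusted p = 0.0036). Samples high in Cd36 for their group were high in Fabp4. The relation remained when groups were also centred within the sets of library numbers (r = 0.78, permutation adjusted p = 0.0436). Without the 2 samples farthest from the median of Cd36, r was 0.77 (permutation adjusted p = 0.0157). For each pair, these 2 samples were picked by the level of its first gene over all 21 samples, before centring. For Cd36 both were HFD-O304 samples, so this value does not check samples far from their own group's mean. Within groups Rbp7 went with Cd36 at r = 0.44 and Pawr at 0.01, values given without a test.

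Fabp5 and Ppard went in opposite directions (r = -0.78, permutation p = 0.00017, adjusted p = 0.00382; rho = -0.69, adjusted p = 0.0232). Centred within sets the value was -0.75 (permutation adjusted p = 0.0436). Without the 2 samples farthest from the median of Fabp5 it was -0.60 (permutation p = 0.0083) and did not pass after adjustment (adjusted p = 0.124). Ppard and Plin2 had rho = -0.72 (permutation adjusted p = 0.0232), while Pearson's r was -0.57 (adjusted p = 0.271) and was -0.15 (adjusted p = 0.906) when centred within sets of library numbers but -0.75 (adjusted p = 0.0157) without the 2 farthest samples. The other 42 pairs did not pass by either measure, among them Lpl with Angptl4 (r = -0.38, permutation adjusted p = 0.494) and Cd36 with Pparg (r = 0.26, adjusted p = 0.76).

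**Figure D5:**
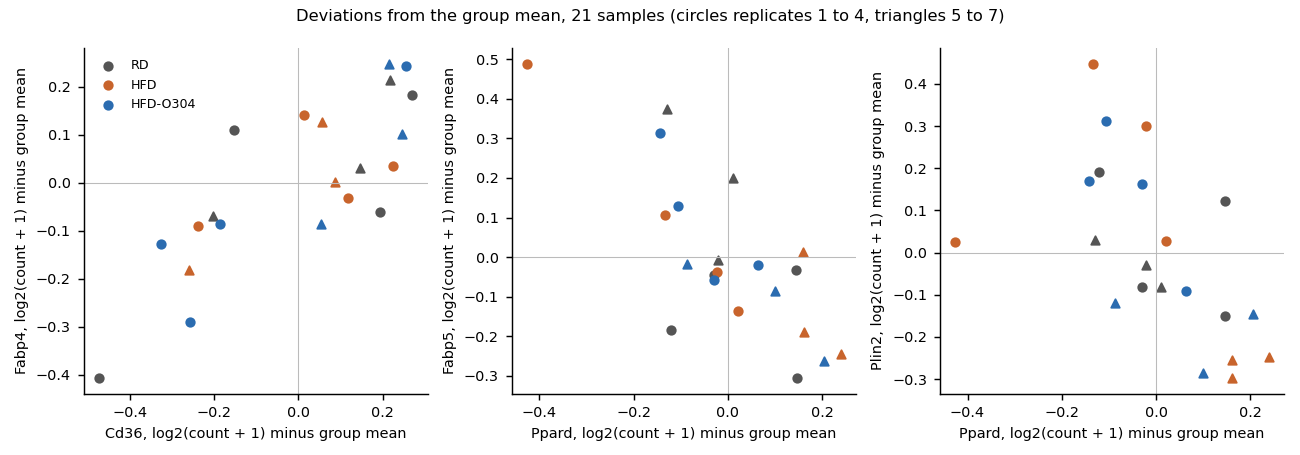
Deviations of log2(normalised count + 1) from the group mean in the 21 samples for 3 pairs of genes (axes in log2 units, colours by group, circles replicates 1 to 4, triangles 5 to 7). Cd36 and Fabp4 deviate together (r = 0.80), Fabp5 falls as Ppard rises with 1 HFD sample far out (r = -0.78), and Ppard against Plin2 splits by the set of library numbers (r = -0.57).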

How the data were processed

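RNA-seq counts of 21 islet samples (7 RD, 7 HFD, 7 HFD-O304) were taken as the authors deposited them. Per the labels and the study's methods, the authors checked reads with FastQC and aligned them with STAR to GRCm38 with GENCODE M21 (versions of both tools are not given in the sources used here), and STAR counted read pairs per gene. The deposited counts have 3 columns by strand. The reverse-strand column (column 4) was used, since it held 28.8 to 36.3 times the pairs of the other strand. Rows naming no gene, 18.5 to 24.9% of pairs, were left out of library sizes and tests. Pairs that match several genes or places are not counted, which lowers genes with close copies.

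The 10 genes, the pathway lists and the marker lists were chosen with earlier results of these data known. Genes with at least 10 pairs over all samples were fitted in edgeR 4.0.16 (TMM scaling, quasi-likelihood test, R 4.3.3, all 3 groups in 1 model) and called at a Benjamini-Hochberg adjusted p under 0.01 over all 27229 genes. SE is the log2 fold change divided by the square root of its F. Levels are counts over DESeq2 1.42.0 size factors. Correlations used Python 3.11.15 and scipy 1.17.1 with 100000 permutations (10000 without the 2 farthest samples). The fit was tested on simulated data with known changes. Of each pathway list, up to 6 called genes are named, those of largest log2 fold change whose mean reached 50 normalised counts, of Cd36 and Fabp4 the 5 most alike genes, and of each marker list the 2 genes with most pairs. Others are named as chosen after their values were seen. Of the pathway genes 1 is counted but not reported here by name. Marker scores served as covariates in alternatives, of which the α-cell and mesenchymal ones were added after the data were seen.

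Group came from sample titles, except for HFD replicate 3, where it came from the diet label. In 1 HFD-O304 sample (replicate 1) the diet label reads as high-fat diet only. No label says which mice, pools or days same-numbered samples share, so p-values measure the spread between these pooled samples. Samples with the same number deviated together in part (4, 6 and 5 of 7 pairs with a correlation over 0.1 in HFD vs RD, HFD-O304 vs RD and HFD-O304 vs HFD). The mean r was 0.199, 0.294 and 0.137, and the lowest was -0.536. Since no label pairs them, numbers were not taken as pairs in the main fit. A fit with the number as a block is given below. Replicates 1 to 4 and 5 to 7 carry library numbers of 2 separate sets, and values within each set are given.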

Additional observations from a re-analysis of the deposited data

Results flagged for a closer look

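In groups of 7 samples, a sample was marked where its gap to the nearest other sample was a larger part of the group's whole range than Dixon's 95% critical value. Of 57 groups tested 11 were marked, where chance gives about 1 in 20.

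Fabp5 in HFD replicate 1 was at 186 normalised counts, with the next HFD sample at 142. Angptl4 was at 47.6 in RD replicate 6, with the next at 23.0, and at 92.4 in HFD replicate 3, with the next at 52.4. Plin4 was at 0.865 in RD replicate 5, where the other 6 RD samples were at 0, and at 2.67 in HFD-O304 replicate 5, with the next at 0.982. At these levels Plin4 rests on 9 read pairs in all.

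Summed adipocyte markers were highest in replicate 7 of each group, at 42.8 normalised counts in RD islets (next 6.41), 106.9 in HFD islets (next 8.74) and 20.6 in HFD-O304 islets (next 5.29). HFD-O304 replicate 4 was marked for summed macrophage markers, at 3439 (next 2951), and for summed duct markers, at 4505 (next 2855). Summed β-cell markers were at 13777628 in HFD replicate 4, with the next at 12412403.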

How the results depend on the processing

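Cd36 and Fabp4 kept their direction in every alternative, and their calls in all but HFD vs RD with the α-cell marker covariate, where 0 genes of the table, 0 of the 10 described and 0 pathway genes were called. In HFD-O304 vs HFD that covariate left 2 genes, both among the 10, and 0 pathway genes, and in HFD-O304 vs RD 133 genes and 3 pathway genes. With it Ppargc1a turned to 0.006 ± 0.27 and Pdk4 to 0.187 ± 0.252 (log2, SE) in HFD vs RD. For HFD-O304 vs HFD, Lmf1 turned to 0.051 ± 0.203, Scarb1 to 0.023 ± 0.133 and Ppargc1a to -0.203 ± 0.344. Acadvl turned to 0.024 ± 0.171 and Pex11a to -0.109 ± 0.193 there. None of them was called or lay farther from 0 than its SE. The cause was not tested.

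Genes called in HFD vs RD, HFD-O304 vs RD and HFD-O304 vs HFD (963, 356 and 3230) became 2148, 785 and 5150 at an adjusted p under 0.05 (pathway genes in HFD vs RD 22 in place of 12) and 1758, 727 and 4045 by DESeq2 (pathway genes in HFD vs RD 19, and 5, 4 and 5 of the 10). Fitting only the 2 groups compared gave 635 in HFD vs RD. Replicates 1 to 4 alone gave 587, 88 and 1994 genes and 7, 0 and 11 pathway genes, and replicates 5 to 7 alone 486 genes in HFD vs RD and 1577 for HFD-O304 vs HFD, with 6, 4 and 9 pathway genes. The set of library numbers as a covariate gave 1611 genes in HFD vs RD and 543 for HFD-O304 vs RD.

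With the replicate number as a block (same-numbered samples share only a number), 1577, 543 and 3763 genes were called, 4, 4 and 4 of the 10, and 18, 7 and 22 pathway genes. The endothelial covariate gave 143 genes in HFD-O304 vs RD and 1533 for HFD-O304 vs HFD, with 10 pathway genes there. The macrophage covariate gave 216 genes in HFD vs RD, with 3 pathway genes there and 4 in HFD-O304 vs RD. The mesenchymal covariate gave 71, 236 and 469 genes, with 3 pathway genes in HFD vs RD and 5 for HFD-O304 vs HFD.

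Without 1 library each, 590 to 1590, 223 to 423 and 2638 to 3573 genes were called, 3 to 5, 2 to 3 and 3 to 4 of the 10, and 7 to 16, 6 to 8 and 12 to 20 pathway genes. In HFD vs RD the count was 590 without RD replicate 7, 598 without HFD replicate 4 and 1590 without HFD replicate 7, and in HFD-O304 vs RD 235 without HFD-O304 replicate 1 and 223 without replicate 5. Pathway genes were 7 in HFD vs RD without HFD replicate 4, and 12 in HFD-O304 vs HFD without HFD replicate 2 or 4. Depth limits Ppara (452 read pairs in all), Angptl4 (922) and above all Plin4 (9).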
